A study of Homo sapiens with 12 samples.

Results

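The 53 genes described here encode the machinery of mitosis: cyclins and mitotic kinases, spindle checkpoint and kinetochore proteins, condensin, separase and proteins of cytokinesis. They were chosen by name with earlier results of these data known, as were the roles and the comparison lists used below. The shares set against all genes are thus description and not independent support. A gene was taken as measured where at least 1 probe set carried its symbol and no other. This held for 52 of the 53 genes, of 18132 genes in all, and for 150 probe sets. PTTG1 (securin) was not analysed here. The study asked what stable ectopic expression of the long noncoding RNA HOTAIR does to urothelial carcinoma cells. VM-CUB1 and 5637 are established lines of this cancer, and both were grown in DMEM with 10% FCS. VM-CUB1_HOTAIR 20 and 5637_HOTAIR 4 are single puromycin-selected clones transfected with a HOTAIR plasmid, and VM-CUB1_LV and 5637_LV are cells of the same line with empty vector, as labelled. Each of these 4 groups was hybridised to 3 Affymetrix PrimeView arrays, 1 for each RNA preparation. Since the preparations of a group come from the same clone, the p-values below cover variation among preparations only, and variation among clones was not sampled.

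All values are on the log2 scale. The deposited values are centred on 0 for each probe set within each line, so they hold differences between HOTAIR and vector cells but no expression level, and 2 genes cannot be ranked by level. A gene's value is the mean of its probe sets, and a gene is called lower or higher when limma's two-sided test of HOTAIR against vector within a line gave an adjusted p under 0.01 over all genes. The arrays limited the precision: the median standard error of a difference among the mitosis genes was 0.058 in VM-CUB1 and 0.057 in 5637, and the smallest called differences were 0.23 and 0.28 in size. HOTAIR itself was not analysed here. For lack of levels the urothelial type of the cells could be checked only by differences. Of 9 measured urothelial and epithelial markers, 5 (55.6%) were lower and 3 (33.3%) higher in VM-CUB1_HOTAIR 20, against 20.5% and 21.1% of all genes. Among them were KRT19 (-8.88), EPCAM (-8.21), KRT5 (-7.17), CDH1 (-3.79) and GATA3 (3.04). In 5637_HOTAIR 4, 1 of the 9 (11.1%) was lower and 4 (44.4%) were higher, led by CDH1 (1.04), against 15.2% and 14.7% of all genes. Of 15 markers of blood, endothelial, fibroblast, muscle and neural cells, 1 (6.67%) was lower in VM-CUB1_HOTAIR 20 (CD14, -0.36). In 5637_HOTAIR 4, 3 (20%) were higher: CD14 (0.92), PECAM1 (0.30) and MBP (0.19). The part of these marker differences in the values of the mitosis genes was not tested. KRT19, EPCAM and KRT5 differed by over 100-fold between the groups of VM-CUB1, and whether both derive from the same parental cells could not be checked from these values, which bears on every VM-CUB1 difference given here. The study states that its cell lines had been verified by DNA fingerprint, without naming the clones. It also reported weaker E-cadherin staining and a gain of vimentin in the HOTAIR cells of VM-CUB1. By a cell viability assay (MTT), the study found that HOTAIR cells of VM-CUB1 proliferated more than vector controls. Those of 5637 grew more slowly than their controls. The relation of this growth to the RNA values given here was not tested.

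In dividing cells, CDK1 bound to cyclin A or cyclin B drives entry into mitosis, condensin and topoisomerase II compact the chromosomes, and kinetochores assemble on centromeres to catch spindle microtubules. Kinetochores without microtubules feed the spindle checkpoint, which holds back the anaphase-promoting complex until all chromosomes are attached. Separase then cuts cohesin, and the central spindle, anillin and the midbody proteins divide the cell. Most of these genes are transcribed in a wave in late S phase, G2 and mitosis, so in a culture of unsynchronised cells their RNA follows the share of cells in those phases. In bulk RNA, fewer cells in these phases and less RNA per cell cannot be told apart.

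More of the mitosis genes were lower than higher with HOTAIR in both lines, by a wider margin in 5637. In 5637_HOTAIR 4, 27 of the 52 genes (51.9%) were lower than in 5637_LV, against a background of 15.2% of all genes tested, and 3 (5.77%) were higher, against a background of 14.7%. In VM-CUB1_HOTAIR 20, 21 of the 52 (40.4%) were lower than in VM-CUB1_LV, against 20.5% of all genes, and 9 (17.3%) were higher, against 21.1% of all genes. The other 22 genes in each line were not called, with differences of up to 0.27 in size in VM-CUB1 and 0.24 in 5637. The median difference over the 52 genes was -0.29 in 5637 and -0.15 in VM-CUB1, beside -0.038 and -0.029 over all genes tested in the same lines. The fitted difference was below 0 for 47 of the 52 genes in 5637 and for 31 in VM-CUB1. Values of the 3 HOTAIR arrays did not overlap those of the 3 vector arrays for 44 of the 52 genes (84.6%) in each line, against 51.3% of all genes in 5637 and 58% in VM-CUB1. In 5637 the HOTAIR arrays lay below the vector arrays for 41 of these 44 and above for 3. In VM-CUB1 they lay below for 28 and above for 16.

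The changes were small in size. Only ANLN in VM-CUB1_HOTAIR 20 and CKAP2 in 5637_HOTAIR 4 differed at least 2-fold among the called genes, both being lower. Of all 18132 genes, 1081 were called at least 2-fold lower and 1041 higher in VM-CUB1_HOTAIR 20. In 5637_HOTAIR 4, 161 were lower and 518 higher by this rule. The mean over the 52 genes was -0.13, -0.14 and -0.14 in the 5637_HOTAIR 4 arrays, against 0.17, 0.15 and 0.13 in the 5637_LV arrays. In VM-CUB1 it was -0.062, -0.052 and -0.057 in the VM-CUB1_HOTAIR 20 arrays, against 0.068, 0.027 and 0.039 in the VM-CUB1_LV arrays. No single preparation stood out from its group in this mean.

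**Figure D1:**
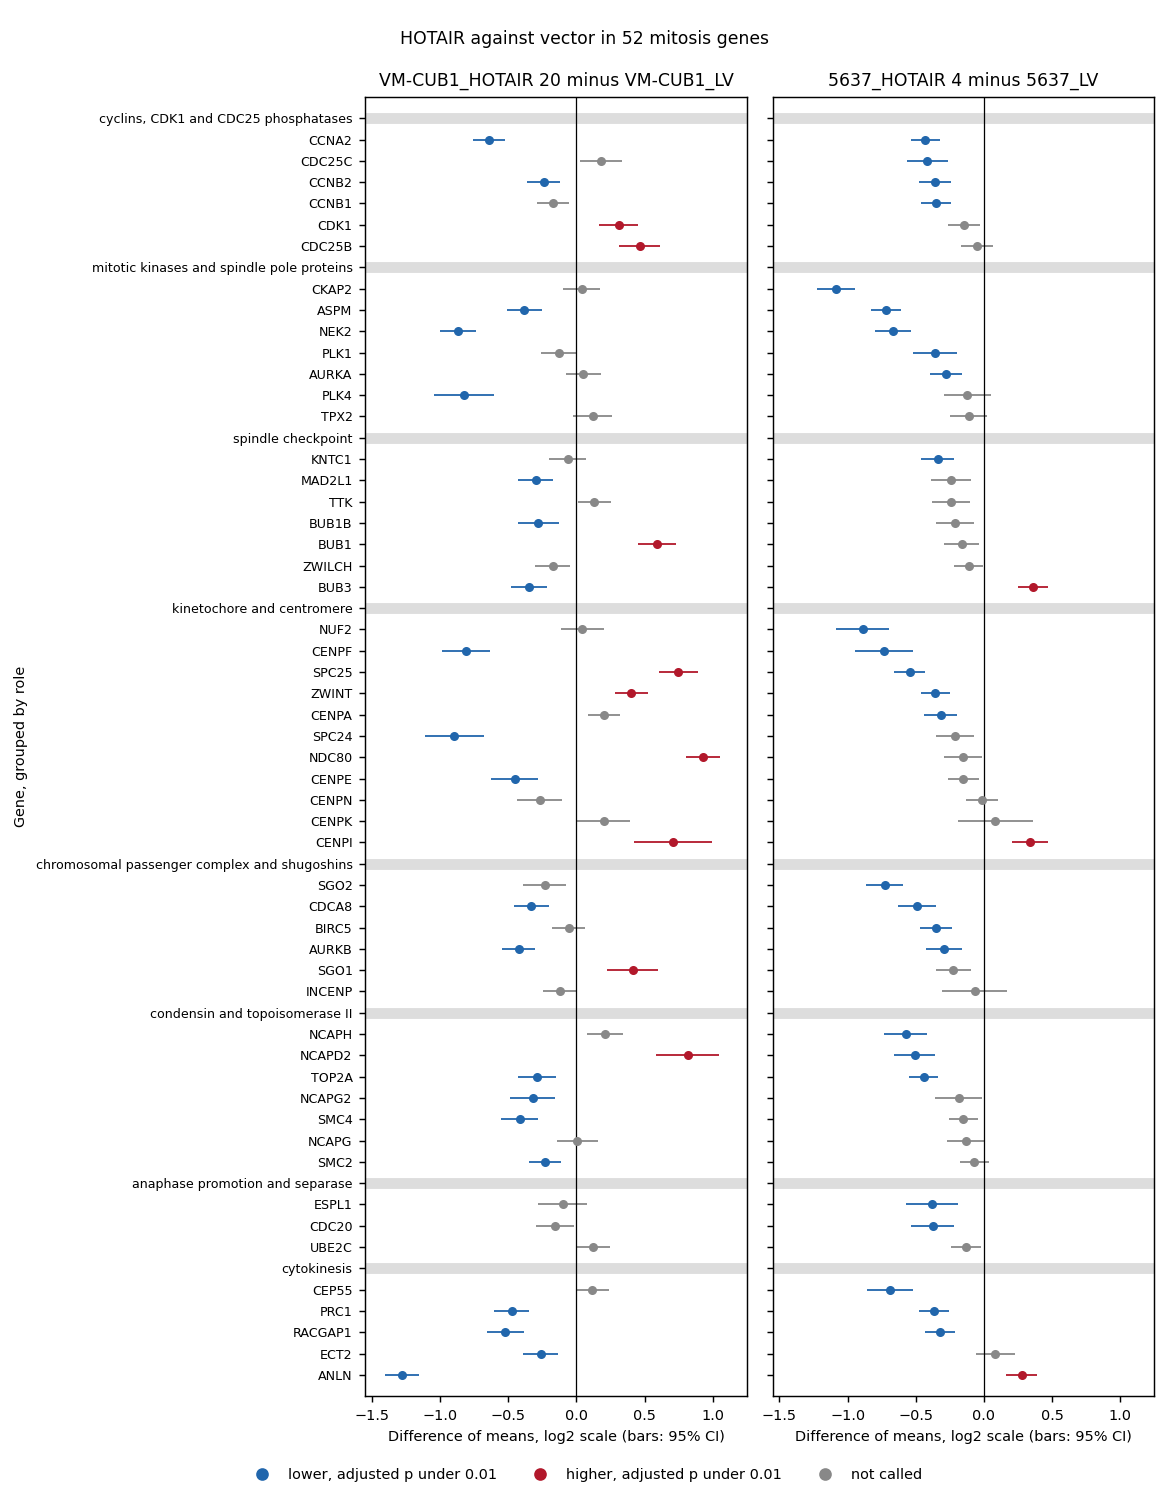
Difference between the mean of 3 HOTAIR arrays and the mean of 3 vector arrays (x axis, log2 scale, bars are 95% confidence intervals) for each of 52 mitosis genes, grouped by role, with VM-CUB1 on the left and 5637 on the right. In 5637, 27 genes are lower, 3 higher and 22 not called; in VM-CUB1, 21 are lower, 9 higher and 22 not called.

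Among the 6 cyclins, CDK1 and CDC25 phosphatases, which switch on and drive mitosis, 4 (66.7%) were lower and none higher in 5637_HOTAIR 4. In VM-CUB1_HOTAIR 20, 2 were lower and 2 higher (33.3% each). For this and each role below, the shares of all genes were 15.2% lower and 14.7% higher in 5637, and 20.5% and 21.1% in VM-CUB1. CCNA2 encodes cyclin A2, the partner of CDK2 in S phase and of CDK1 in G2, and was lower in both lines. Its values were -0.28, -0.30 and -0.33 in VM-CUB1_HOTAIR 20 arrays, against 0.36, 0.31 and 0.34 in VM-CUB1_LV arrays. In 5637 they were -0.19, -0.17 and -0.18 in 5637_HOTAIR 4 arrays, against 0.25, 0.23 and 0.27 in 5637_LV arrays. The groups did not overlap in either line, and the differences were -0.64 ± 0.051 (SE) in VM-CUB1 (limma adjusted p = 1.01e-05) and -0.43 ± 0.045 in 5637 (adjusted p = 0.000128). The 2 B-type cyclins, which activate CDK1 for mitosis itself, were both lower in 5637_HOTAIR 4. CCNB1 had values of -0.16, -0.15 and -0.18 in 5637_HOTAIR 4 arrays, against 0.24, 0.18 and 0.15 in 5637_LV arrays, and all 3 HOTAIR arrays were the lower ones (difference -0.35 ± 0.048, limma adjusted p = 0.000529). In VM-CUB1 its values were -0.13, -0.055 and -0.13 in VM-CUB1_HOTAIR 20 arrays, against 0.082, 0.063 and 0.055 in VM-CUB1_LV arrays, again without overlap, but the difference of -0.17 ± 0.052 was not called (adjusted p = 0.0237). CCNB2 differed by -0.36 in 5637 and by -0.24 in VM-CUB1 and was called lower in both.

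CDK1 itself, the kinase that these cyclins activate, did not follow them in VM-CUB1. Its values there were 0.16, 0.10 and 0.14 in VM-CUB1_HOTAIR 20 arrays, against -0.27, -0.10 and -0.16 in VM-CUB1_LV arrays. All 3 HOTAIR arrays were above all 3 vector arrays, and the difference was 0.31 ± 0.062, or 1.24-fold higher (limma adjusted p = 0.00274). The call was lost without VM-CUB1_HOTAIR 20 replicate 1 or replicate 3 (adjusted p 0.0123 to 0.013) with the median in place of the mean of its 3 probe sets (0.26, adjusted p = 0.0118), with the plain t-test that the study's methods name (here the methods' t-test, 0.0126) and with the replicate number as a block (0.0103). In 5637 CDK1 had values of -0.045, -0.13 and -0.067 in 5637_HOTAIR 4 arrays, against 0.062, 0.10 and 0.035 in 5637_LV arrays, and the difference of -0.15 ± 0.050 was not called (adjusted p = 0.0457). Its probe sets differed there: 1 was lower by 0.55 on the log2 scale, and the others had differences of 0.016 and 0.085. CDC25B, a phosphatase that activates cyclin-CDK1, was higher in VM-CUB1_HOTAIR 20 (0.46) and not called in 5637 (-0.050). CDC25C, which acts on the same complex, was lower in 5637_HOTAIR 4 (-0.41) and not called in VM-CUB1 (0.18).

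Of 7 mitotic kinases and spindle pole proteins, 5 (71.4%) were lower in 5637_HOTAIR 4, 3 (42.9%) were lower in VM-CUB1_HOTAIR 20 and none was higher in either. CKAP2, a microtubule-binding protein of the spindle poles, had the largest difference of all mitosis genes in 5637. It had values of -0.53, -0.49 and -0.60 in 5637_HOTAIR 4 arrays, against 0.64, 0.50 and 0.50 in 5637_LV arrays. The groups were far apart, with a difference of -1.09 ± 0.060 or 2.12-fold lower (limma adjusted p = 4.33e-06), and each of its 5 probe sets was lower there, by 0.93 to 1.20 on the log2 scale. In VM-CUB1 the same 5 probe sets gave -0.022, 0.059 and -0.010 in VM-CUB1_HOTAIR 20 arrays, against -0.049, -0.079 and 0.041 in VM-CUB1_LV arrays. Those groups overlapped, and the difference of 0.038 ± 0.058 was not called (adjusted p = 0.635).

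NEK2, a kinase that separates the centrosomes, was lower in both lines. Its values were -0.48, -0.46 and -0.35 in VM-CUB1_HOTAIR 20 arrays, against 0.48, 0.42 and 0.42 in VM-CUB1_LV arrays. The 5637 values were -0.30, -0.36 and -0.35 in 5637_HOTAIR 4 arrays, against 0.41, 0.33 and 0.25 in 5637_LV arrays. In both lines all HOTAIR arrays lay below all vector arrays, with differences of -0.87 ± 0.058 or 1.83-fold lower in VM-CUB1 (limma adjusted p = 3.26e-06) and -0.67 ± 0.057 in 5637 (adjusted p = 4.04e-05). ASPM, which focuses spindle poles, was also lower in both (-0.38 in VM-CUB1, -0.72 in 5637). PLK1, a kinase with roles in mitotic entry, spindle assembly and cytokinesis, had values of -0.15, -0.14 and -0.15 in 5637_HOTAIR 4 arrays, against 0.092, 0.35 and 0.20 in 5637_LV arrays. The HOTAIR arrays were close together and below the wider vector arrays, and the difference of -0.36 ± 0.069 was called (limma adjusted p = 0.00345). This call was lost without any 1 of the 3 5637_HOTAIR 4 arrays or without 5637_LV replicate 3 (adjusted p 0.0111 to 0.0143), with the methods' t-test (0.0289) and without the probe sets that share probes (0.0136). In VM-CUB1 PLK1 had values of -0.083, -0.063 and -0.035 in VM-CUB1_HOTAIR 20 arrays, against 0.018, 0.14 and 0.060 in VM-CUB1_LV arrays, and its difference of -0.13 ± 0.056 was not called (adjusted p = 0.0825). AURKA, the kinase of centrosome maturation, was lower in 5637_HOTAIR 4 (-0.28) and not called in VM-CUB1 (0.051). PLK4, the kinase that starts centriole duplication, was lower in VM-CUB1_HOTAIR 20 (-0.82) and not called in 5637 (-0.12). TPX2, an activator of AURKA on the spindle, was called in neither line (0.12 in VM-CUB1, -0.11 in 5637).

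Of the 7 spindle checkpoint genes, 1 was lower and 1 higher in 5637_HOTAIR 4 (14.3% each, near the 15.2% and 14.7% of all genes), and 3 were lower (42.9%) and 1 was higher (14.3%) in VM-CUB1_HOTAIR 20, against 20.5% and 21.1% of all genes. BUB3 and BUB1 work as a pair, BUB3 carrying the kinase BUB1 to kinetochores. BUB3 had values of -0.13, -0.24 and -0.15 in VM-CUB1_HOTAIR 20 arrays, against 0.14, 0.18 and 0.21 in VM-CUB1_LV arrays. In 5637 it had values of 0.16, 0.19 and 0.17 in 5637_HOTAIR 4 arrays, against -0.21, -0.15 and -0.19 in 5637_LV arrays. The HOTAIR arrays were thus the lower ones in VM-CUB1 (difference -0.35 ± 0.056, limma adjusted p = 0.000838) and the higher ones in 5637 (difference 0.36 ± 0.046, adjusted p = 0.000392). In VM-CUB1 the 3 probe sets of BUB3 disagreed: 1 was lower by 0.93 on the log2 scale, and the others, with differences of -0.23 and 0.11, were not called. With their median the difference was -0.23 and the call was lost (adjusted p = 0.0222), and without the probe set that shares probes with other transcripts it was -0.58 (adjusted p = 9.75e-05).

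BUB1 had values of 0.27, 0.27 and 0.23 in VM-CUB1_HOTAIR 20 arrays, against -0.23, -0.38 and -0.38 in VM-CUB1_LV arrays. It was thus higher in all 3 HOTAIR arrays of VM-CUB1, by 0.59 ± 0.061 (limma adjusted p = 5.17e-05), opposite to its partner BUB3 in the same cells. In 5637 BUB1 had values of -0.060, -0.12 and -0.043 in 5637_HOTAIR 4 arrays, against 0.18, 0.048 and 0.043 in 5637_LV arrays, and its difference of -0.16 ± 0.057 was not called (adjusted p = 0.0495). BUB1B and MAD2L1, both inhibitors of the anaphase-promoting complex in the checkpoint, were lower in VM-CUB1_HOTAIR 20 (-0.28 and -0.30) and not called in 5637 (-0.22 and -0.24). KNTC1, which brings dynein to kinetochores together with ZWILCH, was lower in 5637_HOTAIR 4 (-0.34) and not called in VM-CUB1 (-0.065). ZWILCH and the checkpoint kinase TTK were called in neither line: ZWILCH differed by -0.17 in VM-CUB1 and by -0.11 in 5637, and TTK by 0.13 and -0.24 in the same lines.

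Among 11 kinetochore and centromere genes, 5 (45.5%) were lower and 1 (9.09%) higher in 5637_HOTAIR 4. In VM-CUB1_HOTAIR 20, 3 (27.3%) were lower and 4 (36.4%) higher, against 20.5% and 21.1% of all genes. The 4 subunits of the NDC80 complex, the rod that ties kinetochores to microtubules, did not move as a unit. NDC80 had values of 0.48, 0.49 and 0.43 in VM-CUB1_HOTAIR 20 arrays, against -0.46, -0.43 and -0.50 in VM-CUB1_LV arrays. It was 1.90-fold higher in the HOTAIR cells of VM-CUB1, the largest rise among the mitosis genes (difference 0.93 ± 0.053, limma adjusted p = 1.33e-06). In 5637 it had values of -0.070, -0.081 and -0.0031 in 5637_HOTAIR 4 arrays, against 0.17, 0.14 and 0.0031 in 5637_LV arrays, and the difference of -0.16 ± 0.060 was not called (adjusted p = 0.0726).

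NUF2, which forms a coiled coil with NDC80, had values of -0.41, -0.45 and -0.36 in 5637_HOTAIR 4 arrays, against 0.67, 0.41 and 0.36 in 5637_LV arrays. All HOTAIR arrays were below all vector arrays, with a difference of -0.89 ± 0.084 or 1.85-fold lower (limma adjusted p = 6.76e-05). In VM-CUB1 its values were 0.10, 0.076 and -0.10 in VM-CUB1_HOTAIR 20 arrays, against 0.027, -0.027 and -0.050 in VM-CUB1_LV arrays, the groups overlapped, and the difference of 0.044 ± 0.068 was not called (adjusted p = 0.644). SPC25, a subunit of the other end of the rod, had values of 0.39, 0.31 and 0.33 in VM-CUB1_HOTAIR 20 arrays, against -0.31, -0.46 and -0.44 in VM-CUB1_LV arrays. In 5637 they were -0.23, -0.27 and -0.27 in 5637_HOTAIR 4 arrays, against 0.34, 0.23 and 0.30 in 5637_LV arrays. SPC25 was thus higher with HOTAIR in VM-CUB1 (difference 0.75 ± 0.061, limma adjusted p = 1.17e-05) and lower in 5637 (difference -0.54 ± 0.050, adjusted p = 5.89e-05), with no overlap of groups in either line. SPC24, its direct partner, went the other way in VM-CUB1, where it was lower by 0.90 on the log2 scale, and was not called in 5637 (-0.21). NDC80, NUF2 and SPC25 were each read by 1 probe set and SPC24 by 5, all 5 of them lower in VM-CUB1_HOTAIR 20.

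ZWINT, a kinetochore protein that recruits dynein adaptors, had values of 0.23, 0.17 and 0.18 in VM-CUB1_HOTAIR 20 arrays, against -0.23, -0.19 and -0.20 in VM-CUB1_LV arrays. For 5637 the values were -0.15, -0.17 and -0.18 in 5637_HOTAIR 4 arrays, against 0.22, 0.17 and 0.18 in 5637_LV arrays. Like SPC25 it was higher in the HOTAIR cells of VM-CUB1 (difference 0.40 ± 0.052, limma adjusted p = 2e-04) and lower in those of 5637 (difference -0.36 ± 0.046, adjusted p = 0.000392). Of the centromere proteins, CENPF, a large coiled-coil protein of the outer kinetochore, was lower in both lines (-0.81 in VM-CUB1, -0.73 in 5637), and CENPI, of the inner kinetochore, was the single mitosis gene called higher in both (0.71 in VM-CUB1, 0.34 in 5637). With the methods' t-test CENPF lost its call in 5637 (adjusted p = 0.0129) and CENPI its calls in both lines (0.0294 in VM-CUB1, 0.0126 in 5637), and in 1 fit of 12 arrays CENPI was not called in 5637 (0.0201). In VM-CUB1, 2 of 3 probe sets of CENPI were higher, by 1.66 and 0.86, and the other, at -0.40, was not called. CENPE, a kinetochore motor, was lower in VM-CUB1_HOTAIR 20 (-0.45) and not called in 5637 (-0.15). CENPA, the histone H3 variant that marks centromeres, was lower in 5637_HOTAIR 4 (-0.32) and not called in VM-CUB1 (0.20). CENPK and CENPN, other proteins of the inner kinetochore, were called in neither line: CENPK differed by 0.20 in VM-CUB1 and 0.084 in 5637, and CENPN by -0.27 and -0.013 in the same lines. Of the 6 probe sets of CENPN, 2 were lower in VM-CUB1 (-0.57 and -0.68) and 1 was lower in 5637 (-0.28), and the others were not called.

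The chromosomal passenger complex (AURKB, INCENP, BIRC5 and CDCA8) corrects faulty attachments, and the shugoshins SGO1 and SGO2 protect cohesion at centromeres. Of these 6 genes, 4 (66.7%) were lower and none higher in 5637_HOTAIR 4. In VM-CUB1_HOTAIR 20, 2 (33.3%) were lower and 1 (16.7%) higher, against 20.5% and 21.1% of all genes. AURKB, the kinase of the complex, had values of -0.27, -0.20 and -0.19 in VM-CUB1_HOTAIR 20 arrays, against 0.23, 0.19 and 0.19 in VM-CUB1_LV arrays. The 5637 values were -0.094, -0.13 and -0.10 in 5637_HOTAIR 4 arrays, against 0.18, 0.27 and 0.094 in 5637_LV arrays. It was lower in all HOTAIR arrays of both lines, with differences of -0.42 ± 0.053 in VM-CUB1 (limma adjusted p = 0.000177) and -0.29 ± 0.058 in 5637 (adjusted p = 0.00405). The call in 5637 was lost without any 1 array other than 5637_LV replicate 3 (adjusted p 0.0118 to 0.0188), with the methods' t-test (0.0199) and with the replicate block (0.0113). CDCA8 (borealin) was lower in both lines (-0.33 in VM-CUB1, -0.49 in 5637). BIRC5 (survivin) was lower in 5637_HOTAIR 4 (-0.35) and not called in VM-CUB1 (-0.055), and the scaffold INCENP was called in neither (-0.12 in VM-CUB1, -0.069 in 5637). Of the 2 probe sets of INCENP, 1 was lower in VM-CUB1 (-0.37), and the other, at 0.13, was not called.

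SGO2 was the most changed of this group in 5637. Its values were -0.39, -0.33 and -0.34 in 5637_HOTAIR 4 arrays, against 0.48, 0.34 and 0.30 in 5637_LV arrays, and the HOTAIR arrays lay below the vector arrays with a difference of -0.73 ± 0.060 or 1.66-fold lower (limma adjusted p = 3.34e-05). In VM-CUB1 the values were -0.14, -0.063 and -0.11 in VM-CUB1_HOTAIR 20 arrays, against 0.25, 0.030 and 0.11 in VM-CUB1_LV arrays, without overlap, and the difference of -0.23 ± 0.068 was not called (adjusted p = 0.0194). SGO1 was higher in VM-CUB1_HOTAIR 20 (0.41) and not called in 5637 (-0.22).

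Of 7 genes of condensin and topoisomerase II, 3 (42.9%) were lower and none higher in 5637_HOTAIR 4. In VM-CUB1_HOTAIR 20, 4 (57.1%) were lower and 1 (14.3%) higher, against 20.5% and 21.1% of all genes. NCAPD2, a regulatory subunit of condensin I, had values of 0.56, 0.25 and 0.39 in VM-CUB1_HOTAIR 20 arrays, against -0.25, -0.53 and -0.48 in VM-CUB1_LV arrays. For 5637 they were -0.33, -0.18 and -0.21 in 5637_HOTAIR 4 arrays, against 0.18, 0.36 and 0.27 in 5637_LV arrays. It was 1.76-fold higher with HOTAIR in VM-CUB1 (difference 0.82 ± 0.10, limma adjusted p = 0.000157) and 1.42-fold lower in 5637 (difference -0.51 ± 0.065, adjusted p = 0.000382), and both of its probe sets were called that way in each line. NCAPH, which bridges the condensin I ring, had values of -0.22, -0.46 and -0.28 in 5637_HOTAIR 4 arrays, against 0.25, 0.25 and 0.25 in 5637_LV arrays. Its HOTAIR arrays were all below its vector arrays, with a difference of -0.57 ± 0.068 (limma adjusted p = 0.000232). In VM-CUB1 its values were 0.062, 0.070 and 0.16 in VM-CUB1_HOTAIR 20 arrays, against -0.075, -0.081 and -0.17 in VM-CUB1_LV arrays, here with the HOTAIR arrays above, and the difference of 0.21 ± 0.058 was not called (adjusted p = 0.0163).

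TOP2A, the topoisomerase that untangles sister chromatids, had values of -0.18, -0.11 and -0.12 in VM-CUB1_HOTAIR 20 arrays, against 0.24, 0.082 and 0.14 in VM-CUB1_LV arrays. The values in 5637 were -0.20, -0.21 and -0.20 in 5637_HOTAIR 4 arrays, against 0.27, 0.23 and 0.22 in 5637_LV arrays. It was lower in both lines, with differences of -0.29 ± 0.061 in VM-CUB1 (limma adjusted p = 0.00378) and -0.44 ± 0.045 in 5637 (adjusted p = 0.000109). The call in VM-CUB1 was lost without any 1 of the VM-CUB1_HOTAIR 20 arrays or without VM-CUB1_LV replicate 3 (adjusted p 0.0107 to 0.0176), with the methods' t-test (0.0141) and with the replicate block (0.0138). SMC2 and SMC4, the ATPase core of condensin, were lower in VM-CUB1_HOTAIR 20 (-0.23 and -0.42) and not called in 5637 (-0.070 and -0.15). Of the 4 probe sets of SMC4, 1 was called in VM-CUB1 (-0.94), and with their median the gene was not called there (-0.31, adjusted p = 0.0104). NCAPG, the second HEAT-repeat subunit of condensin I, was called in neither line (0.0073 in VM-CUB1, -0.13 in 5637), but its 2 probe sets disagreed. Of these, 1 was called higher in VM-CUB1 (0.30) and lower in 5637 (-0.30). The other, at -0.28 in VM-CUB1 and 0.035 in 5637, was not called. NCAPG2, of condensin II, was lower in VM-CUB1_HOTAIR 20 (-0.32) and not called in 5637 (-0.18). It was the single mitosis gene with probe sets called both ways in 1 line: in VM-CUB1, 3 of its 5 probe sets were lower and 2 higher, with differences of -1.09 to 0.46.

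Among the 3 measured genes of anaphase, 2 (66.7%) were lower in 5637_HOTAIR 4 and none was called in VM-CUB1. ESPL1, separase itself, had values of -0.051, -0.22 and -0.32 in 5637_HOTAIR 4 arrays, against 0.15, 0.10 and 0.30 in 5637_LV arrays. The HOTAIR arrays were spread but all below the vector arrays, with a difference of -0.38 ± 0.083 (limma adjusted p = 0.00661). The call was lost without any 1 array other than 5637_HOTAIR 4 replicate 1 (adjusted p 0.0107 to 0.0251), with the methods' t-test (0.0523), with a further quantile normalization (0.0146) and with the replicate block (0.0161). In VM-CUB1 ESPL1 had values of -0.0083, 0.025 and -0.23 in VM-CUB1_HOTAIR 20 arrays, against 0.091, 0.015 and -0.017 in VM-CUB1_LV arrays, the groups overlapped, and the difference of -0.10 ± 0.078 was not called (adjusted p = 0.33). CDC20, the activator of the anaphase-promoting complex, was lower in 5637_HOTAIR 4 (-0.38) and not called in VM-CUB1 (-0.16). UBE2C, its ubiquitin-conjugating enzyme, was called in neither (0.12 in VM-CUB1, -0.13 in 5637).

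Of 5 cytokinesis genes, 4 (80%) were lower and none higher in VM-CUB1_HOTAIR 20, and 3 (60%) were lower and 1 (20%) higher in 5637_HOTAIR 4. ANLN encodes anillin, the scaffold of the contractile ring. Its values were -0.65, -0.62 and -0.62 in VM-CUB1_HOTAIR 20 arrays, against 0.60, 0.65 and 0.70 in VM-CUB1_LV arrays. In 5637 they were 0.14, 0.14 and 0.072 in 5637_HOTAIR 4 arrays, against -0.12, -0.18 and -0.18 in 5637_LV arrays. In VM-CUB1 the groups were further apart than for any other mitosis gene, at -1.28 ± 0.054 or 2.43-fold lower with HOTAIR (limma adjusted p = 1.98e-07), and all 4 probe sets were lower. In 5637 ANLN was higher, by 0.28 ± 0.049 (adjusted p = 0.00223), a call that was lost without 5637_HOTAIR 4 replicate 1 or replicate 2 (adjusted p 0.0126 to 0.0129). CEP55, which opens the way for abscission at the midbody, had values of -0.26, -0.30 and -0.43 in 5637_HOTAIR 4 arrays, against 0.48, 0.26 and 0.35 in 5637_LV arrays. Here all HOTAIR arrays were the lower ones, with a difference of -0.69 ± 0.073 (limma adjusted p = 0.00013). In VM-CUB1 its values were 0.10, 0.089 and 0.017 in VM-CUB1_HOTAIR 20 arrays, against -0.030, -0.063 and -0.051 in VM-CUB1_LV arrays, and the difference of 0.12 ± 0.053 was not called (adjusted p = 0.101). PRC1, which bundles the central spindle, and RACGAP1, of centralspindlin, were lower in both lines. PRC1 differed by -0.47 in VM-CUB1 and -0.37 in 5637, and RACGAP1 by -0.52 and -0.32 in the same lines. Of the 4 probe sets of PRC1, 1 was called in 5637 (-0.755), and the others, at -0.23 to -0.24, were not called there. ECT2, the exchange factor that RACGAP1 recruits, was lower in VM-CUB1_HOTAIR 20 (-0.26) and not called in 5637 (0.084).

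**Figure D2:**
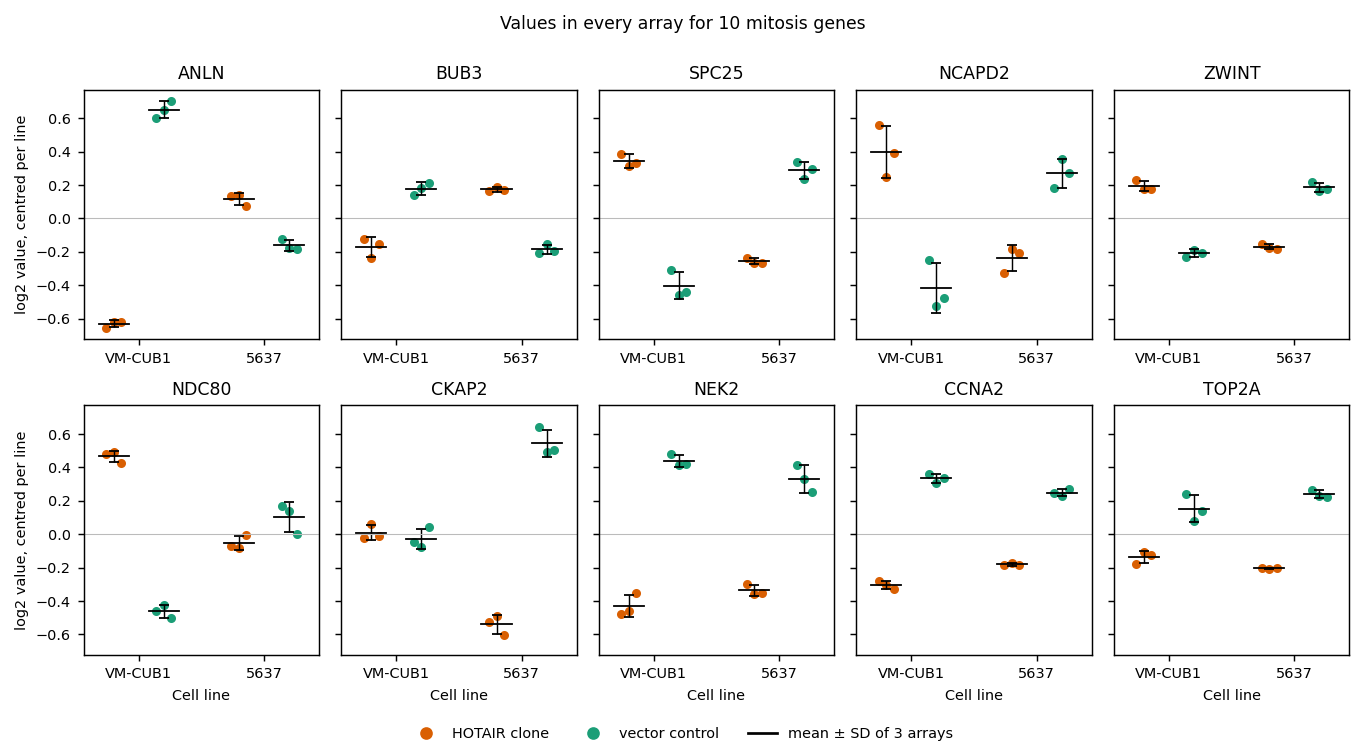
Centred log2 value (y axis) in every array for 10 mitosis genes, with the HOTAIR clone left of its vector control within each line; points are arrays, and black lines with bars are the mean ± SD of 3 arrays. ANLN and BUB3 lie below the vector arrays in VM-CUB1 and above them in 5637, SPC25, NCAPD2 and ZWINT the other way round, and NEK2, CCNA2 and TOP2A below them in both lines.

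Across the lines, 10 genes were lower in both, of 21 lower in VM-CUB1 and 27 lower in 5637: CCNA2, CCNB2, NEK2, ASPM, CENPF, AURKB, CDCA8, TOP2A, RACGAP1 and PRC1. With the methods' t-test CENPF and AURKB lost the call in 5637 and TOP2A in VM-CUB1. SPC25, ZWINT and NCAPD2 were called higher with HOTAIR in VM-CUB1 and called lower with it in 5637, and BUB3 and ANLN were lower in VM-CUB1 and higher in 5637. A further 9 genes were lower and 5 higher in VM-CUB1 alone, and 14 were lower in 5637 alone, where such counts rest on the threshold and not on a test between lines. Neither line gave a call for 8 genes (TPX2, TTK, ZWILCH, CENPK, CENPN, INCENP, NCAPG and UBE2C). Such overlaps between the lines were not counted here over all genes. These counts thus stand without a background and are not read as a trait of the mitosis genes.

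The difference between the HOTAIR effects, VM-CUB1 minus 5637, was tested in 1 fit of all 12 arrays. It was called for 28 of the 52 genes, against a background of 42% of all genes tested, and the effect in VM-CUB1 was above that in 5637 for 21 of them and below for 7. The split above and below was not counted over all genes. The largest differences were those of ANLN (-1.56 ± 0.066, limma interaction, adjusted p = 4.51e-10), NCAPD2 (1.32 ± 0.13, adjusted p = 1.3e-06), SPC25 (1.29 ± 0.075, adjusted p = 9.25e-09) and CKAP2 (1.12 ± 0.082, adjusted p = 8.15e-08). NDC80 followed at 1.08 ± 0.077 (adjusted p = 6.76e-08). In ZWINT the difference was 0.76 ± 0.061 (adjusted p = 2.31e-07), and in BUB3 -0.71 ± 0.067 (adjusted p = 1.07e-06), so each of the 5 genes called in opposite directions also differed by this test. For CDK1 it was 0.46 ± 0.076 (adjusted p = 0.000186), or 0.25 with the median of its probe sets, where it was not called (adjusted p = 0.0232). Of the 10 genes lower in both lines, the effect differed for CCNA2 (-0.21 ± 0.060, adjusted p = 0.0099), a call lost without any 1 of the 12 arrays (adjusted p 0.0127 to 0.0282) and under some other settings (0.0112 to 0.0383), and for ASPM (0.34 ± 0.067, adjusted p = 0.000828). For the other 8 it was not called, but effects that differ by amounts within the 95% confidence intervals are not excluded. These ran from -0.29 to 0.033 for AURKB, from -0.0005 to 0.31 for TOP2A and from -0.35 to 0.20 for CENPF. The intervals of NEK2 (-0.37 to -0.033) and RACGAP1 (-0.35 to -0.048), not adjusted over genes, lay below 0.

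**Figure D3:**
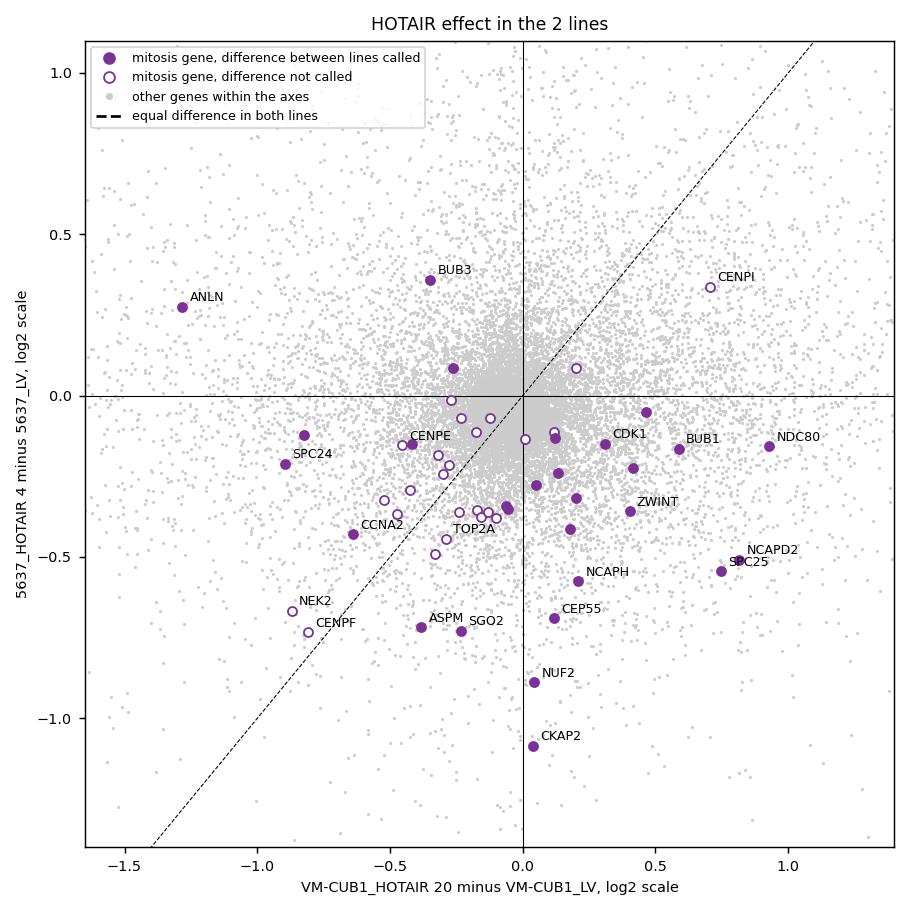
HOTAIR minus vector in VM-CUB1 (x axis) against the same in 5637 (y axis), log2 scale, for 52 mitosis genes (circles, filled where the difference between lines was called) over the other genes that fall within the axes (grey; 16670 of 18132 genes lie there). ANLN and BUB3 lie upper left, NCAPD2, SPC25, ZWINT and NDC80 lower right, CKAP2 and NUF2 near 0 on the x axis and far below 0 on the y axis.

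Taken by probe set, 64 of the 150 (42.7%) were lower and 6 (4%) higher in 5637_HOTAIR 4, against 12.1% and 12.6% of the 44988 probe sets that carry 1 symbol, over which p was adjusted. In VM-CUB1_HOTAIR 20, 45 of the 150 (30%) were lower and 18 (12%) higher, against 18% and 19.1% of all these probe sets. Some genes that were not called by their mean still held a called probe set, such as NCAPH in VM-CUB1 (0.64) and SGO1 in 5637 (-0.64).

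Other genes of mitosis, from lists outside the 53, were counted in the same way. Of 105 measured genes (further kinetochore proteins, subunits of the anaphase-promoting complex, cohesin and condensin II, regulators of mitotic entry, spindle and midbody proteins, and the DREAM, MuvB, FOXM1 and NF-Y regulators), 45 (42.9%) were lower and 7 (6.67%) higher in 5637_HOTAIR 4 (median -0.19), against 15.2% and 14.7% of all genes. In VM-CUB1_HOTAIR 20, 42 (40%) were lower and 29 (27.6%) higher (median -0.13), against 20.5% and 21.1% of all genes, so both shares lay above those of all genes there. Among further kinetochore genes, 13 of 31 (41.9%) were lower and 2 (6.45%) higher in 5637, led by CENPL (-0.73) and HJURP (-0.68), the chaperone of CENPA. In VM-CUB1, 8 of the 31 (25.8%) were lower and 11 (35.5%) higher, with MIS12 (1.95) and CENPU (-1.70) at the ends. Of 13 mitotic kinesins, the motors of the spindle, 10 (76.9%) were lower and none higher in 5637_HOTAIR 4, led by KIF15 (-0.81) and KIF20B (-0.69). In VM-CUB1_HOTAIR 20, 3 (23.1%) were lower and 2 (15.4%) higher, near the 20.5% and 21.1% of all genes, with KIF14 at -1.05 and KIF24 at 0.59. BORA, an activator of AURKA and PLK1, was among 7 of 10 regulators of mitotic entry (70%) that were lower in 5637 (-1.004), where 1 (10%) was higher. In VM-CUB1, 5 of these 10 (50%) were lower and 3 (30%) higher, among them GTSE1 (1.05) and WEE1 (0.97), the kinase that inhibits CDK1.

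Of 42 measured DNA replication genes, 8 (19%) were lower and 5 (11.9%) higher in 5637_HOTAIR 4 (median -0.019), near the 15.2% and 14.7% of all genes, led by RFC3 (-0.76) and GINS4 (-0.66), and 14 (33.3%) were lower and 16 (38.1%) higher in VM-CUB1_HOTAIR 20 (median -0.0089), led by TYMS (1.18) and MCM7 (-1.12), against 20.5% and 21.1% of all genes. MKI67, the gene of the proliferation marker Ki-67, was lower in VM-CUB1_HOTAIR 20 (-0.72) and not called in 5637 (-0.23). FOXM1, a transcription factor of G2 and mitosis genes, was higher in VM-CUB1_HOTAIR 20 (0.25) and not called in 5637 (0.042). Of the 16 DREAM, MuvB, FOXM1 and NF-Y regulators, 8 (50%) were lower in 5637, led by LIN52 (-0.77), against 15.2% of all genes. There 2 were higher, led by TFDP2 (0.65), a share near the 14.7% of all genes. In VM-CUB1, 7 (43.8%) were lower, led by E2F5 (-1.60) and TFDP2 (-1.21), against 20.5% of all genes. Another 4 (25%) were higher there, near the 21.1% of all genes.

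Promoters of G2 and mitosis genes are known for 2 sequence elements: the cell cycle genes homology region (CHR), bound by complexes that contain MuvB, and the CCAAT box, bound by NF-Y. TTTGAA and CCAAT were searched on both strands in windows of 300 bases, from 250 bases before to 50 after each start site (RefSeq, GRCh38.p14). The table held promoters for 45 of the 53 genes, and a gene with several start sites was counted once if any of its windows held the motif. TTTGAA was found for 29 of the 45 genes (64.4%), against 15.9% of the genes tested, CCAAT for 34 (75.6%), against 42.4%, and both for 20 (44.4%), against 6.67%. Both motifs stood in the promoters of 15 of 23 genes lower in 5637_HOTAIR 4 and of 5 of 21 genes not lower there. For VM-CUB1 they stood in those of 8 of 19 genes lower in VM-CUB1_HOTAIR 20 and 12 of 25 not lower. A TTTGAA shared bases with a CCAAT in 1 of the 61 promoter windows of these genes. These are matches of letters and not measured binding sites, and no test was made of the split.

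The promoters below show this arrangement in 4 genes with low adjusted p in a line where they fell and both motifs (ASPM, CENPF, SPC25 and TOP2A), beside the 2 genes that rose most, NDC80 and NCAPD2. SPC25 and NCAPD2 each belong to both kinds, since HOTAIR cells had less of them in 5637 and more of them in VM-CUB1. They run 5′ to 3′ along the gene's strand, and capitals mark TTTGAA or CCAAT and their reverse complements. The windows are chr1:197146620-197146919 on the minus strand for ASPM, chr1:214602945-214603244 on the plus strand for CENPF, chr2:168890381-168890680 on the minus strand for SPC25, chr17:40417847-40418146 on the minus strand for TOP2A, chr18:2571307-2571606 on the plus strand for NDC80 and chr12:6493852-6494151 on the plus strand for NCAPD2. In each, 250 bases precede the first transcribed base.
ASPM: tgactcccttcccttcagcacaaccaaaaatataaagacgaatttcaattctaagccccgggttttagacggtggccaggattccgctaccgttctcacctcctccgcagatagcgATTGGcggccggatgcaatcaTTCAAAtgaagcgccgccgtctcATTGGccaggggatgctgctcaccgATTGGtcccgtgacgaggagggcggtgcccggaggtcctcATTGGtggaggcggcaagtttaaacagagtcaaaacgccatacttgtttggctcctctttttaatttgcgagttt
CENPF: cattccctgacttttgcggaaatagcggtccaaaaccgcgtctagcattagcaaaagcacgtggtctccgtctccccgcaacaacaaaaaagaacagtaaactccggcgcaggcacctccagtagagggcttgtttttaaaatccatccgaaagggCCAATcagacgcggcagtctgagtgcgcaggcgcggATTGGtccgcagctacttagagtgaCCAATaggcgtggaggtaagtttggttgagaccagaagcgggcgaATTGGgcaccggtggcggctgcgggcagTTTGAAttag
SPC25: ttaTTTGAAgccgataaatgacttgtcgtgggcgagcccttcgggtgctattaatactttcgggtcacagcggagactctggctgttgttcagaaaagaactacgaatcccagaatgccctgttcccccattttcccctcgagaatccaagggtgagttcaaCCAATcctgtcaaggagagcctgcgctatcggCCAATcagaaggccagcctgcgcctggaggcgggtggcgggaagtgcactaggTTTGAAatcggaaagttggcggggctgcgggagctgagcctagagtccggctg
TOP2A: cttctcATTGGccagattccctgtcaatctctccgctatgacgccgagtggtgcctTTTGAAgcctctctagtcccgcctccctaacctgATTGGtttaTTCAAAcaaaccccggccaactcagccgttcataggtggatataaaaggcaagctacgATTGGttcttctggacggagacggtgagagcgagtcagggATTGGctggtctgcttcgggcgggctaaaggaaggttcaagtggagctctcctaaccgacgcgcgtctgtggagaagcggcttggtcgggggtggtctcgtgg
NDC80: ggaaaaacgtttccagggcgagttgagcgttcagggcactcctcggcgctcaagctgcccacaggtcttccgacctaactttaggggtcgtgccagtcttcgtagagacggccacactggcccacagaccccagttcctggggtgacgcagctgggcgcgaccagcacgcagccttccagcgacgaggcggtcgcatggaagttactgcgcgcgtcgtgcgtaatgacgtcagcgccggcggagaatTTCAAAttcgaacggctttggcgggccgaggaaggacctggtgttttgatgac
NCAPD2: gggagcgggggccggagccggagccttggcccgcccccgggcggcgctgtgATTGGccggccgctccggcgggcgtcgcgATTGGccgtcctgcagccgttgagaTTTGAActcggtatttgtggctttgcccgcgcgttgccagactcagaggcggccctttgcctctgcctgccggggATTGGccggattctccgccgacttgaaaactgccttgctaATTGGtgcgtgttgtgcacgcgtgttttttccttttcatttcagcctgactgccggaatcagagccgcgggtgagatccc

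ASPM, CENPF, TOP2A and NCAPD2 each held 4 CCAAT boxes in these windows, SPC25 held 2 and NDC80 none, while each of the 6 held TTTGAA at least once. In SPC25 and in NDC80 a TTTGAA match began 3 bases before the start site. Over the 45 genes, 24 had a TTTGAA within 50 bases of a start site, and 31 had a CCAAT between 150 and 20 bases before one.

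**Figure D4:**
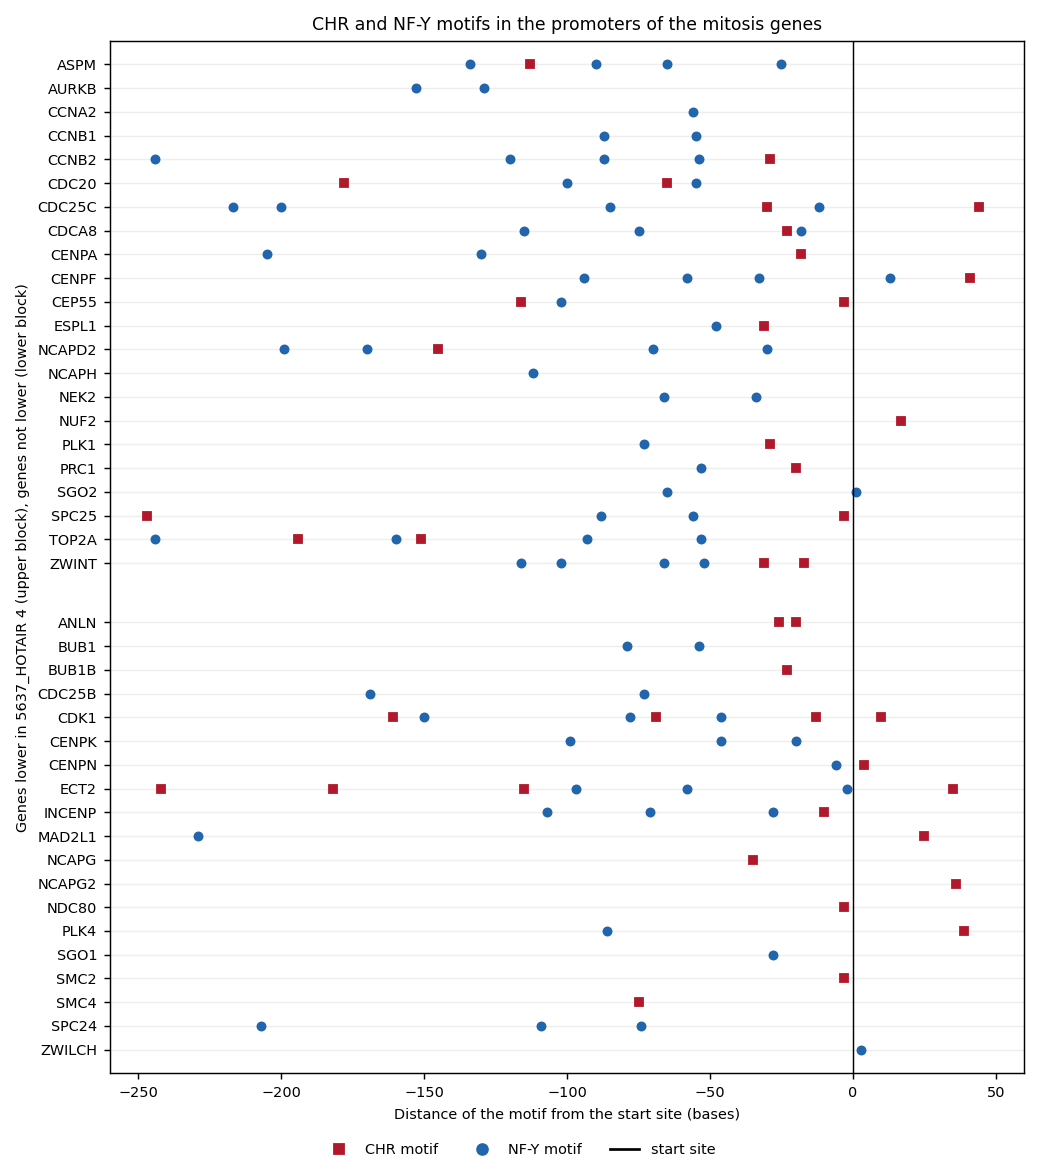
Distance of each CHR motif (red squares) and NF-Y motif (blue circles) from the start site in bases (x axis) for the measured mitosis genes with at least 1 motif, the 22 genes lower in 5637_HOTAIR 4 in the upper block and 19 genes not lower in the lower block. The NF-Y motifs lie mostly upstream and the CHR motifs mostly close to the start site.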

How the data were processed

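Total RNA of 2 cell lines was hybridised to PrimeView arrays (3 arrays in each of 4 groups). The authors summarised them in GeneSpring GX with RMA (named in the submitters' processing notes) and deposited log2 values for 49395 probe sets, with a baseline transformation; the deposited log2 values are centred, so that the 6 arrays of a line have median 0 for every probe set. A filter for signal above background or a choice of the brightest probe set needs levels and was not applied. Groups were taken from the sample titles.

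After 102 control probe sets were left out, the platform annotation gave a single gene symbol for 44988 probe sets, more than 1 for 1832 and no symbol for 2473. Those with 1 symbol stood for 18132 genes, and a gene's value was the mean of its probe sets. HOTAIR was compared with vector within each line by limma 3.58.1 (lmFit, eBayes; R 4.3.3), two-sided, Benjamini-Hochberg adjusted over all genes, at 0.01. The difference between lines was an interaction over 12 arrays. The scripts were tested on simulated data. Promoters came from RefSeq and were searched in Python 3.11.15. The 53 genes, the role lists and the comparison lists were chosen with earlier results of these data known.

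Values in every array are given, in each role, for the gene with the largest called difference in each line, for genes called in opposite directions, for the 4 largest differences between lines, and for CDK1, CCNB1, PLK1, AURKB, TOP2A and NDC80. Other lists have up to 2 examples, by the largest called difference, and FOXM1 and MKI67. Promoters were shown for up to 4 genes called lower, by adjusted p, that hold both motifs, and for the 2 largest rises. Alternatives were the methods' t-test, an adjusted p of 0.05, a 2-fold minimum, the median of probe sets, leaving out probe sets that share probes, quantile normalization, centring of arrays, leaving out the third of genes with the smallest range, 1 fit of all arrays, robust eBayes, a replicate block and leaving out each array.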

Additional observations from a re-analysis of the deposited data

Results flagged for a closer look

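The effect of HOTAIR, taken as HOTAIR minus vector, differed between the lines for 28 of the 52 mitosis genes when the difference itself was tested (limma interaction over 12 arrays, adjusted p under 0.01), against 42% of all genes tested. The values below are the effect in VM-CUB1 minus the effect in 5637 on the log2 scale. Genes higher in VM-CUB1_HOTAIR 20 and lower in 5637_HOTAIR 4 were NCAPD2 (1.32), SPC25 (1.29) and ZWINT (0.76), and those lower in VM-CUB1_HOTAIR 20 and higher in 5637_HOTAIR 4 were ANLN (-1.56) and BUB3 (-0.71). Genes higher in VM-CUB1_HOTAIR 20 and not called in 5637 were NDC80 (1.08), BUB1 (0.75), SGO1 (0.64), CDC25B (0.51) and CDK1 (0.46). Genes lower in VM-CUB1_HOTAIR 20 and not called in 5637 were PLK4 (-0.70), SPC24 (-0.69), ECT2 (-0.35) and SMC4 (-0.27). Genes lower in 5637_HOTAIR 4 and not called in VM-CUB1 were CKAP2 (1.12), NUF2 (0.93), CEP55 (0.81), NCAPH (0.78), CDC25C (0.59), CENPA (0.52), SGO2 (0.49), AURKA (0.33), BIRC5 (0.30) and KNTC1 (0.28). TTK (0.37) and UBE2C (0.25) were called in neither line alone, and ASPM (0.34) and CCNA2 (-0.21) were lower in both. Of the 10 urothelial and epithelial markers listed, 9 were measured, of which CDH1 and KRT5 were lower in VM-CUB1_HOTAIR 20 and higher in 5637_HOTAIR 4, GATA3 was higher in VM-CUB1_HOTAIR 20 and lower in 5637_HOTAIR 4, KRT8 and KRT18 were higher in both, KRT7, KRT19 and EPCAM were lower in VM-CUB1_HOTAIR 20 and not called in 5637, and UPK2 was called in neither. The part of that in the mitosis genes was not tested.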

How the results depend on the processing

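With a change of at least 2-fold also required, 1 mitosis gene was lower and 0 were higher in VM-CUB1_HOTAIR 20 (limma calls 21 and 9 without this rule), and 1 was lower and 0 higher in 5637_HOTAIR 4 (27 and 3 without it). Of all 18132 genes, this rule left 1081 lower and 1041 higher in VM-CUB1_HOTAIR 20, and 161 and 518 in 5637_HOTAIR 4. Under every other setting each count stayed within 1.5 times its value. With the methods' t-test, 18 were lower and 7 higher in VM-CUB1_HOTAIR 20, and 23 lower and 2 higher in 5637_HOTAIR 4. The same t-test called 1798 of all genes lower in 5637, against 2765 with limma. Leaving out 1 array gave 14 to 20 genes lower and 7 to 10 higher in VM-CUB1_HOTAIR 20, 22 to 25 lower and 2 to 3 higher in 5637_HOTAIR 4, and 24 to 30 genes with a difference between lines. In the data the replicate numbers did not pair the samples (correlations of the deviations of same-numbered arrays between -0.045 and 0.083). With the replicate block, 15 genes were lower and 8 higher in VM-CUB1_HOTAIR 20, 24 lower and 3 higher in 5637_HOTAIR 4, and 23 differed between lines.

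Apart from the 2-fold rule, 17 of 30 calls in VM-CUB1, 21 of 30 in 5637 and 22 of 28 differences between lines were kept in every setting, and none of these called values changed sign. Beside the calls described above, leaving out 1 array or another setting ended these calls. In 5637, AURKA was lost when replicate 2 or 3 of either group was left out (adjusted p 0.01 to 0.0146), and CDC20 when 5637_HOTAIR 4 replicate 1, the same group's replicate 2, or 5637_LV replicate 2 was (0.0102 to 0.0116). In VM-CUB1, MAD2L1 (0.0111) and SGO1 (0.0122) were lost without VM-CUB1_HOTAIR 20 replicate 3, and ECT2 (0.0149 to 0.0192) and NCAPG2 (0.0171 to 0.0245) without replicate 2 or 3 of either group. BUB1B was lost without any 1 array but VM-CUB1_LV replicate 2 (0.011 to 0.0284), CCNB2 without any but VM-CUB1_LV replicate 3 (0.0107 to 0.0228), and SMC2 without any but VM-CUB1_LV replicate 1 (0.0103 to 0.02). The differences between lines of KNTC1 (8 arrays, 0.0123 to 0.0209), SMC4 (9 arrays, 0.0102 to 0.0173) and UBE2C (9 arrays, 0.0105 to 0.0166) depended on most single arrays. With the methods' t-test BUB1B (0.0257), CENPE (0.0137), NCAPG2 (0.0308) and SGO1 (0.0277) also lost the call in VM-CUB1, and CDC20 (0.0239) and CDC25C (0.0156) in 5637. With the replicate block AURKA lost it in 5637 (0.0108), BUB1B (0.0127), CCNB2 (0.0145), ECT2 (0.0153), NCAPG2 (0.0158) and SMC2 (0.0179) in VM-CUB1, and ECT2 (0.0112), KNTC1 (0.0258), SMC4 (0.0223) and UBE2C (0.0224) for the difference between lines. With the median of probe sets SGO1 (0.0149) and SMC2 (0.0191) were lost in VM-CUB1, as was the difference between lines of SMC4 (-0.18, adjusted p = 0.127). When probe sets sharing probes were left out, SMC2 was lost in VM-CUB1 (0.0188) and the difference between lines of KNTC1 (0.0107). The difference of NCAPG2 in VM-CUB1 was -0.48 with the median of its probe sets, against -0.32 with their mean.

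Changes of sign were seen only in values that were not called. With the median of probe sets CDK1 (0.012) and CENPN (0.021) were above 0 in 5637, as was CENPN with a further quantile normalization (0.013) or with arrays centred on their median (0.013). The difference of CENPF between lines was 0.11 with quantile normalization. Leaving out 1 array moved NCAPG in VM-CUB1 between -0.029 and 0.050, and in 5637 CENPN between -0.041 and 0.014, CENPK between -0.0098 and 0.24 and INCENP between -0.13 and 0.050. It moved the differences between lines of CENPF between -0.14 and 0.019, of CENPK between -0.037 and 0.21 and of INCENP between -0.17 and 0.0080. The variant of limma with a trend in the variance needs levels and was not run. The cause of none of these shifts was tested.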
